A study of Mus musculus with 12 samples.

Results

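The naive pluripotency transcription factors examined here were Klf2, Klf4, Klf5, Esrrb, Tfcp2l1, Tbx3, Nanog, Nr5a2, Prdm14 and Zfp42 (also known as Rex1). They were taken by gene symbol, each symbol matched 1 gene, and together they made up 10 of the 54446 gene identifiers in the deposited tables. All 10 passed the filter on low values, a mean of at least 1 TPM over all libraries, which left 15727 genes for testing.

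RNA sequencing had been performed on 12 libraries of mouse embryonic stem (ES) cells, exposed for 0, 72 or 144 h to INK128, which inhibits the kinase mTOR (mTORi) and brings ES cells into a dormant state resembling embryonic diapause. KH cells served as the wild type, and DNMT3ABKO cells lack Dnmt3a and Dnmt3b, the enzymes that place DNA methylation de novo. Each line was represented at each time point by 2 libraries. The comparisons address how the naive network behaved during entry into dormancy and whether this depended on de novo methylation.

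The 6 groups were therefore KH and DNMT3ABKO cells without inhibitor (0 h), after 72 h and after 144 h of INK128. E14 precedes both line names in the labels, but the methods name the wild type KH2 and place KH2 and Dnmt3a/b knockout cells on mitomycin-treated feeders. Genotype was represented by 1 line each, so a difference between lines cannot be told apart from other differences between these lines. No untreated culture was sampled at 72 or 144 h, so the response to mTORi cannot be told apart from time in culture. The labels do not say whether replicates were separate cultures. The study describes its experiments in general as independently repeated, with the time points of a biological replicate handled side by side. The p-values measure the spread between these libraries only.

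Naive pluripotency is the state of the preimplantation epiblast and is held in ES cells by a network of transcription factors that activate each other. LIF signaling through STAT3 feeds into Klf4 and Tfcp2l1, and release from the repressor TCF7L1 by WNT signaling feeds into Esrrb and Tfcp2l1. On exit from this state the naive factors are lost first, while Pou5f1 (Oct4) and Sox2 continue to be expressed in the formative and primed epiblast.

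Targeted genes were examined as a check of the labels. Dnmt3a stood at 7.35 to 21.9 TPM in DNMT3ABKO libraries and at 54.7 to 144 TPM in KH libraries, and Dnmt3b at 12.7 to 27.5 against 142 to 258 TPM. Pou5f1, which defines pluripotent cells, reached at least 786 TPM in every library. The 2 libraries of DNMT3ABKO cells at 0 h stood apart from each other, with r of 0.985 across genes against 0.994 to 0.996 in the other 5 groups, and values without each are given where that changes a call or moves a called change by over 1.5 times. TPM (transcripts per 1000000) is a share of each library's RNA, corrected for transcript length. It keeps no read depth, which is unknown here, and total RNA per cell was not analysed, since no spike-in row was listed. With values normalized to spike-in RNAs, the paper reports decreased global transcription under mTORi in wild-type and Dnmt3a/b knockout cells. Rises and falls given here are therefore changes in a gene's share of RNA, not in its RNA per cell.

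Promoters of 3 members are shown because these members differed in TPM as deposited. Klf4 had the widest range of expression, Zfp42 was called higher in both lines at 72 h, and Nanog higher in KH and lower in DNMT3ABKO cells. Each stretch holds 250 bases before and 50 bases after a RefSeq start, written 5′ to 3′ on the strand of the gene, from GRCm38.p6, the assembly of mm10. Capitals mark the searched motifs.
Klf4 (chr4:55532426-55532725, minus strand): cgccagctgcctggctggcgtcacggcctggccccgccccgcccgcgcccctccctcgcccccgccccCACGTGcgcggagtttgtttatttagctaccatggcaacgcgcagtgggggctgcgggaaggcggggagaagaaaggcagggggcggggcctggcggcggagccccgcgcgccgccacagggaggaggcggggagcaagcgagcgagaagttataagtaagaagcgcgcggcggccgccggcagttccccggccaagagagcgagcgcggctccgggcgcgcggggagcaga
Zfp42 (chr8:43306960-43307259, minus strand): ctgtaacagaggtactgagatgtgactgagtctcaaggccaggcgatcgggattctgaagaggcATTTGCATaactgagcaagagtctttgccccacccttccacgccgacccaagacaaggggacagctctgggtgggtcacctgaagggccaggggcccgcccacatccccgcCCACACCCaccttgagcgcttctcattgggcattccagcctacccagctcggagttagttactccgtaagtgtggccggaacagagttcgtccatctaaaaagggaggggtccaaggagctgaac
Nanog (chr6:122707239-122707538, plus strand): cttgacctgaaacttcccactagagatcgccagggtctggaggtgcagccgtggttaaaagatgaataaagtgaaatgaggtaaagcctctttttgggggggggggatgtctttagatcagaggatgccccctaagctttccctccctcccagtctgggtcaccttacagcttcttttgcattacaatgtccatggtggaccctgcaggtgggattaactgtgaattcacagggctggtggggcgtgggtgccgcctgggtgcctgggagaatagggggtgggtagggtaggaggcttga
The Klf4 promoter held CACGTG, the E-box bound by TFE3, at 182 bases before the start. The Zfp42 promoter held the KLF motif CCACACCC at 75 bases and the octamer of OCT4, ATGCAAAT on the other strand, at 186 bases before the start. The Nanog stretch held none of the searched motifs.

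RefSeq entries were found for 7 of the 10 members, with 10 promoters in all, and Klf5, Tbx3 and Prdm14 had none in the table used. CACGTG was present in 1 of these 10 promoters and in 7.15% of all 32851 promoters, searched on both strands. Likewise CCACACCC was in 1 of 10 and in 3.56% of all, and ATGCAAAT in 1 of 10 and in 1.74% of all. The ESRRB motif TCAAGGTCA (0.423% of all promoters) and the STAT3 motif TTCCNGGAA (1.15%) were in none of the 10. These matches describe letters in a short window and say nothing of binding. CpG content separated the members, with 40 CpG sites for Klf4, 32 for Klf2 and 21 for Tfcp2l1, against 11 for Zfp42, 7 for Esrrb, 4 for Nanog and 2 or 7 at the starts of Nr5a2. The median over all promoters was 7.

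Levels per transcript length placed 9 members among the more abundant genes. Esrrb had the highest mean in KH cells at all 3 time points, at 225 ± 9.02, 384 ± 18.9 and 345 ± 46.0 TPM (SD, n = 2). In DNMT3ABKO cells the highest was Nanog at 0 h, Zfp42 at 72 h and Esrrb at 144 h. Prdm14 was the lowest in every group, at 4.35 to 10.7 TPM on average, above 29.5% to 45.8% of tested genes, while each other member lay above at least 73.4% of them. Most neighbors in this order were separated in both libraries. The exceptions were Nanog and Zfp42 and also Klf4 and Tfcp2l1 in KH cells at 0 h, Klf5 and Nanog in KH cells at 144 h, and Klf2 and Klf5 and also Tfcp2l1 and Klf4 in DNMT3ABKO cells at 0 h. The Zfp42 pseudogene Zfp42-ps1 was listed at 37.7 to 64.2 TPM and could share reads with Zfp42.

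**Figure D1:**
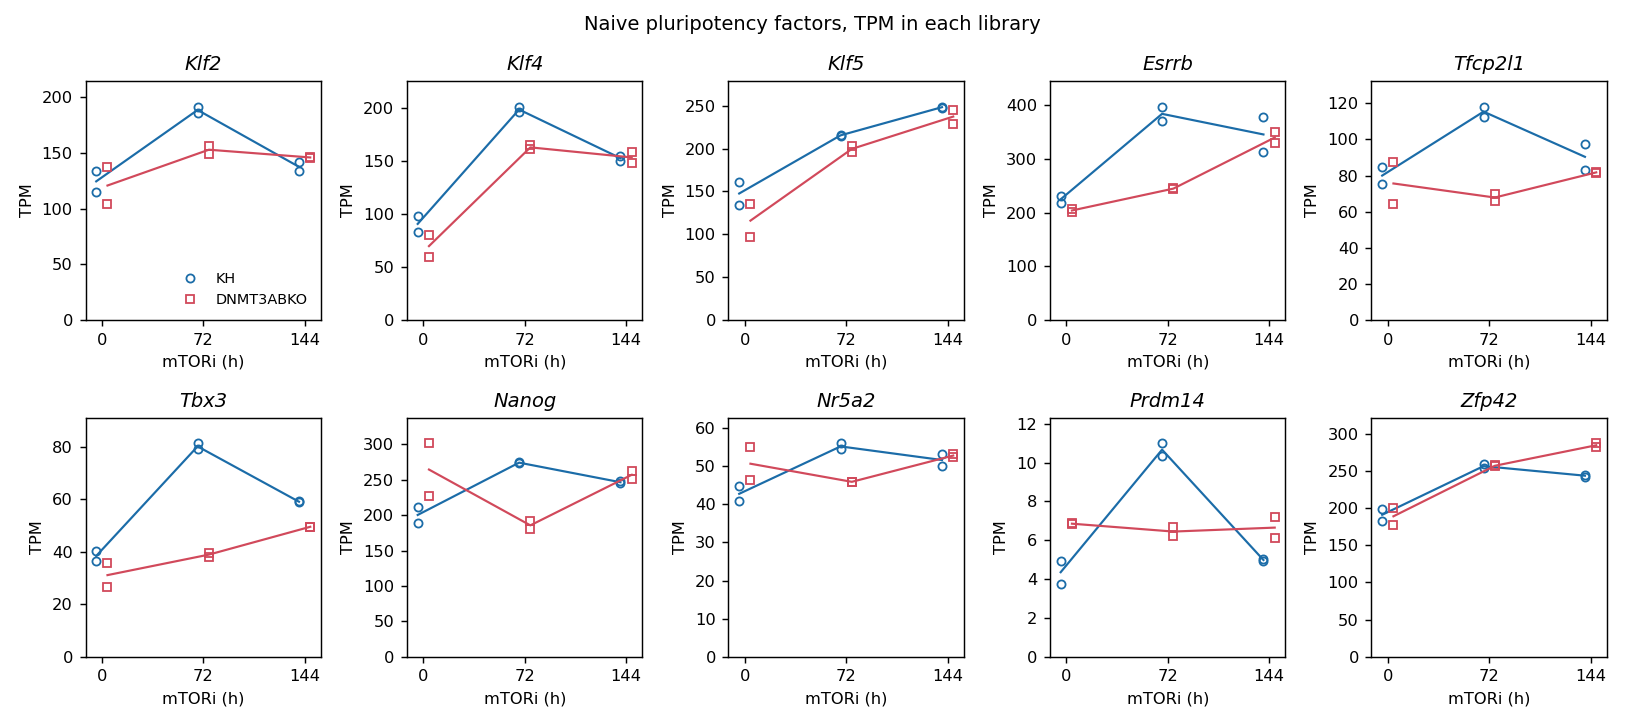
TPM of each naive factor (vertical axes, starting at 0) against hours of mTORi, with each of the 12 libraries as a symbol (circles, KH; squares, DNMT3ABKO) and lines through group means. In KH cells 9 members have their highest mean at 72 h and Klf5 at 144 h (relative to Pou5f1, Sox2 and Sall4 Nr5a2 is not above 0 h). In DNMT3ABKO cells Esrrb rises mainly after 72 h and Nanog dips at 72 h. The Tbx3 mean is higher at 72 h and again at 144 h, but the later step was not called.

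The sum over the 10 members gives a first view of the network. In KH cells it was 1078 and 1210 TPM at 0 h, 1797 and 1758 TPM at 72 h, and 1619 and 1540 TPM at 144 h. In DNMT3ABKO cells it was 1016 and 1239 TPM at 0 h, 1364 and 1358 TPM at 72 h, and 1599 and 1617 TPM at 144 h. The KH sum was thus highest at 72 h and the DNMT3ABKO sum at 144 h, and the libraries of both lines overlapped at 0 and 144 h but not at 72 h.

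All 10 members rose in KH cells by 72 h, where 28.3% of all tested genes were called higher (limma, adjusted p under 0.05), although relative to 3 core factors, Pou5f1, Sox2 and Sall4, 4 were called and Nr5a2 turned to -0.058. The median log2 change was 0.57 for the members and 0.08 for all tested genes. In DNMT3ABKO cells 6 members rose, Klf2, Klf4, Klf5, Esrrb, Tbx3 and Zfp42, against 34.3% of tested genes called higher, of which Klf2, Esrrb and Tbx3 turned to -0.020, -0.11 and -0.042 relative to the core factors. Nanog fell, against 21.6% of tested genes called lower. Tfcp2l1, Nr5a2 and Prdm14 did not pass the test in these cells, with log2 changes of -0.14, -0.13 and -0.08. Without replicate 1 of KH cells at 0 h, Klf5, Tfcp2l1 and Nanog were lost and 7 KH calls were left, and without replicate 2 at 72 h Tfcp2l1 was lost. Without either DNMT3ABKO library at 72 h, Klf2, Esrrb and Tbx3 were lost and 4 calls were left. Of the untreated DNMT3ABKO libraries, leaving out replicate 1 lost Klf2 (0.15) and Tbx3 (0.12) and called Tfcp2l1 (-0.36) and Nr5a2 (-0.26) lower. Leaving out replicate 2 lost Esrrb (0.24) and gave 0.55 for Klf2 and 0.54 for Tbx3.

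Markers of other cells moved with time. Fibroblast markers, which feeder cells express, summed to 2666 to 2928 TPM in KH cells at 0 h, 1287 to 1318 TPM at 72 h and 573 to 663 TPM at 144 h, and to 2907 to 3140, 1044 to 1091 and 425 to 440 TPM in DNMT3ABKO cells. At 72 h 18 of the 19 tested fibroblast genes were lower in each line, against 19.5% of all tested genes in KH and 21.6% in DNMT3ABKO cells. Macrophage markers summed to 349 to 382 TPM in KH and 301 to 331 TPM in DNMT3ABKO cells at 0 h, 258 to 265 and 173 to 176 TPM at 72 h, and 39.9 to 40.9 and 56.8 to 59.5 TPM at 144 h, where C1qb was listed at 0 in both KH libraries. Primitive endoderm markers summed to 109 to 121 TPM at 0 h and 39.6 to 67.0 TPM later, but did not move together. Foxa2, Gata4, Sox17 and Sox7 did not pass the filter on low values. Of the 5 that were tested, Pdgfra and Col4a1 were lower at 72 h in both lines and Dab2 in DNMT3ABKO cells. The shares of all tested genes called lower were 19.5% in KH and 21.6% in DNMT3ABKO cells. Lama1 was higher in both lines (0.59 in KH and 0.51 in DNMT3ABKO cells), and Gata6 was not called. The part of these cells in the changes of the naive factors was not tested, and in such bulk libraries fewer cells of a type and less RNA per cell cannot be told apart. Klf2 and Klf4 are also expressed by fibroblasts.

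The 3 Krüppel-like factors bind overlapping sites and can stand in for each other in sustaining naive ES cells. Klf4, a LIF and STAT3 target (chr4:55527143-55532466), had the widest range of the members, 1.51 on the log2 scale between its lowest and highest group. It was at 82.8 and 98.5 TPM in KH cells at 0 h, 201 and 196 TPM at 72 h and 155 and 150 TPM at 144 h. In DNMT3ABKO cells it was at 59.2 and 80.2, then 161 and 165, then 148 and 158 TPM. Treated libraries did not overlap with untreated ones in either line. The log2 change at 72 h was 1.13 ± 0.125 (SE, adjusted p = 8.1e-05, limma) in KH cells and 1.23 ± 0.125 (adjusted p = 2.78e-05) in DNMT3ABKO cells, and the difference between these responses was 0.10 ± 0.177 (adjusted p = 0.827).

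Klf5 (chr14:99298691-99315036), a regulator of early lineage choice, was at 134 and 161 TPM, then 215 and 216, then 248 and 249 TPM in KH cells. Its values in DNMT3ABKO cells were 96.9 and 135, then 203 and 196, then 229 and 246 TPM. Levels were highest at 144 h in both lines, without overlap between time points. The step from 72 to 144 h was not called, at 0.20 in KH (adjusted p = 0.326, limma) and 0.25 in DNMT3ABKO cells (adjusted p = 0.211). The log2 change from 0 to 144 h was 0.75 ± 0.135 (adjusted p = 0.0011, limma) in KH cells and 1.05 ± 0.135 (adjusted p = 9.97e-05) in DNMT3ABKO cells.

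Klf2 (chr8:72319033-72321656), which MEK/ERK signaling destabilizes at the protein level, was at 115 and 134 TPM, then 192 and 186, then 133 and 142 TPM in KH cells. DNMT3ABKO libraries were at 104 and 137, then 149 and 156, then 146 and 145 TPM. It rose by 0.60 ± 0.116 on the log2 scale by 72 h in KH cells (adjusted p = 0.00215, limma) and fell by 0.45 from 72 to 144 h (adjusted p = 0.0195), ending at levels that overlapped with the untreated libraries. Its rise of 0.35 ± 0.116 in DNMT3ABKO cells at 72 h (adjusted p = 0.0262) became -0.020 when expressed relative to Pou5f1, Sox2 and Sall4.

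Esrrb (chr12:86361117-86521628), an orphan nuclear receptor and target of GSK3 inhibition, was at 218 and 231 TPM in KH cells at 0 h, 397 and 370 TPM at 72 h and 378 and 313 TPM at 144 h. In DNMT3ABKO cells it was at 207 and 200, then 244 and 246, then 350 and 329 TPM. KH cells had therefore reached their highest level by 72 h, whereas in DNMT3ABKO cells most of the increase fell between 72 and 144 h. Log2 changes at 72 h were 0.77 ± 0.087 in KH cells (adjusted p = 8.99e-05, limma) and 0.26 ± 0.087 in DNMT3ABKO cells (adjusted p = 0.0271), where the latter became -0.11 relative to Pou5f1, Sox2 and Sall4. From 72 to 144 h Esrrb rose by 0.47 ± 0.087 in DNMT3ABKO cells (adjusted p = 0.0028), while the KH libraries of these times overlapped.

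Tbx3 (chr5:119670669-119684724), a T-box factor that sustains Nanog expression, was among the less abundant members. KH cells contained 36.6 and 40.2 TPM, then 81.3 and 79.0, then 59.3 and 58.8 TPM. DNMT3ABKO cells contained 26.4 and 35.8, then 38.1 and 39.7, then 49.6 and 49.4 TPM. The KH level was 2.06-fold higher at 72 h (log2 change 1.04 ± 0.115, adjusted p = 7.57e-05, limma) and then fell by 0.43 on the log2 scale (adjusted p = 0.0225). In DNMT3ABKO cells the change at 72 h was 0.33 ± 0.115 (adjusted p = 0.033, limma), or -0.042 relative to Pou5f1, Sox2 and Sall4. At 144 h it was 0.67 ± 0.115 from 0 h (adjusted p = 0.000666, limma). The step from 72 to 144 h in these cells was not called, at 0.34 (adjusted p = 0.0523, limma). The antisense gene Tbx3os1 overlaps Tbx3 and did not exceed 1.78 TPM.

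Tfcp2l1 (chr1:118627945-118685168), a STAT3 target that can sustain naive self-renewal, was at 75.5 and 84.4 TPM, then 113 and 118, then 97.4 and 83.3 TPM in KH cells. Values in DNMT3ABKO cells were 64.0 and 87.2, then 69.5 and 66.1, then 82.1 and 81.4 TPM. Only the KH 72 h libraries lay above all others, with a log2 change of 0.52 ± 0.130 from 0 h (adjusted p = 0.00801, limma). At 144 h Tfcp2l1 was not called in either line, with changes of 0.17 and 0.13 from 0 h.

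Nanog (chr6:122707489-122714633), a homeodomain factor of the network's center, was called in opposite directions in the lines at 72 h. KH libraries were at 189 and 212 TPM at 0 h, 275 and 273 TPM at 72 h and 248 and 245 TPM at 144 h. DNMT3ABKO libraries were at 227 and 301 TPM at 0 h, 191 and 180 TPM at 72 h and 251 and 263 TPM at 144 h. The log2 change at 72 h was 0.45 ± 0.113 in KH cells (adjusted p = 0.0083, limma) and -0.49 ± 0.113 in DNMT3ABKO cells (adjusted p = 0.00422). Relative to Pou5f1, Sox2 and Sall4 the KH change was 0.03 (adjusted p = 0.723, limma) and the DNMT3ABKO change -0.87. Nanog then rose by 0.47 ± 0.113 from 72 to 144 h in DNMT3ABKO cells (adjusted p = 0.012), to a level within the range of the untreated libraries. The DNMT3ABKO change at 72 h was -0.70 without replicate 1 at 0 h and -0.29 without replicate 2, and was called either way.

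Nr5a2 (chr1:136842571-136960448), a nuclear receptor that binds the Pou5f1 promoter, had the narrowest range, 0.36 on the log2 scale. Its values were 40.8 and 44.7, then 54.4 and 56.0, then 53.2 and 50.03 TPM in KH cells. In DNMT3ABKO cells they were 46.3 and 55.0, then 46.0 and 45.8, then 53.2 and 52.3 TPM. The KH rise of 0.36 ± 0.086 at 72 h (adjusted p = 0.00629, limma) became -0.058 relative to Pou5f1, Sox2 and Sall4.

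Prdm14 (chr1:13113457-13127163), which represses FGF signaling and de novo methyltransferase genes in naive cells, was high at 72 h only in KH cells. KH libraries were at 3.76 and 4.95 TPM, then 10.3 and 10.99, then 5.01 and 4.95 TPM. DNMT3ABKO libraries stayed between 6.09 and 7.21 TPM at all times. In KH cells Prdm14 rose by 1.13 ± 0.119 by 72 h (adjusted p = 5.7e-05, limma) and fell by 0.96 from 72 to 144 h (adjusted p = 0.00038). At this low level log2(TPM + 1) understates the change.

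Zfp42 (chr8:43295063-43306980), a zinc finger protein used as a naive marker, was at 183 and 199 TPM, then 259 and 254, then 242 and 245 TPM in KH cells. DNMT3ABKO cells contained 178 and 200, then 256 and 258, then 282 and 287 TPM. The lines overlapped at 72 h, with log2 changes of 0.42 ± 0.069 in KH cells (adjusted p = 0.000791, limma) and 0.44 ± 0.069 in DNMT3ABKO cells (adjusted p = 0.000422). Relative to Pou5f1, Sox2 and Sall4 neither was called, at 0.0045 (adjusted p = 0.931, limma) and 0.07 (adjusted p = 0.148).

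**Figure D2:**
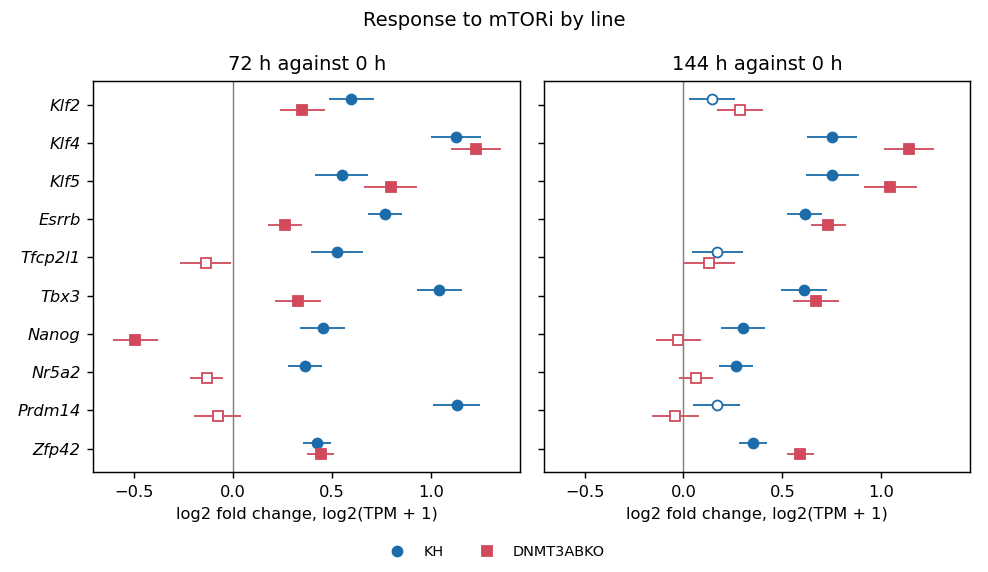
Log2 fold change of each naive factor from 0 h to 72 h (left) and to 144 h (right) on log2(TPM + 1), with the standard error from limma as bars. Filled symbols passed an adjusted p under 0.05. At 72 h the KH values lie between 0.36 and 1.13 and those of DNMT3ABKO cells between -0.49 and 1.23, and relative to Pou5f1, Sox2 and Sall4 Nr5a2 in KH cells and Klf2, Esrrb and Tbx3 in DNMT3ABKO cells change sign at 72 h. At 144 h Klf2, Tfcp2l1, Nanog, Nr5a2, Prdm14 and Zfp42 in KH cells and Klf2, Tfcp2l1 and Nr5a2 in DNMT3ABKO cells do so.

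The 144 h comparison shares its untreated libraries with that at 72 h. In KH cells 7 members were higher than at 0 h, Klf4, Klf5, Esrrb, Tbx3, Nanog, Nr5a2 and Zfp42, against 27.4% of tested genes. Relative to Pou5f1, Sox2 and Sall4 only Klf4 and Klf5 were called higher, Klf2 (-0.29), Tfcp2l1 (-0.27) and Nr5a2 (-0.17) were called lower, and Nanog (-0.14), Zfp42 (-0.087) and Prdm14 (-0.27) turned negative without a call. On TPM as deposited, the log2 changes of the 7 members were 0.27 to 0.75. Nanog (0.30, adjusted p = 0.0477, limma) and Nr5a2 (0.27, adjusted p = 0.0246) had the smallest. In DNMT3ABKO cells the 5 called higher were Klf4, Klf5, Esrrb, Tbx3 and Zfp42, with changes of 0.59 to 1.14, against 31.4% of tested genes. Relative to the core factors 4 of these stood, all but Tbx3. Another 5 members were called lower, Klf2 (-0.20), Tfcp2l1 (-0.36), Nanog (-0.51), Nr5a2 (-0.42) and Prdm14 (-0.53). On this recentred scale the median over all tested genes was -0.39 in KH and -0.43 in DNMT3ABKO cells. The shares of tested genes above are for TPM as deposited, and those called on the recentred scale are not given here. The counts called lower on that scale therefore do not set the members apart from all genes. Klf2, Tfcp2l1 and Nr5a2, called lower in each line, lay above that median. The KH call of Nanog was lost in 10 of 12 exclusions of a single library (all but the DNMT3ABKO libraries at 0 h), when no filter on low values was applied, and with the replicate number as a block (adjusted p = 0.0538, limma). With that block Klf2 was called higher in DNMT3ABKO cells (0.28, adjusted p = 0.0486). Without replicate 1 of KH cells at 0 h, or without either KH library at 144 h, Nr5a2 was lost too and 5 calls were left. Without replicate 1 of DNMT3ABKO cells at 0 h Nanog was called lower in these cells (-0.23, adjusted p = 0.0241). Without replicate 2 the DNMT3ABKO count was 8, with Klf2 (0.48), Tfcp2l1 (0.35) and Nr5a2 (0.19) gained.

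The step from 72 to 144 h was compared within each line, and its difference between lines was not tested. In KH cells Klf2, Tbx3 and Prdm14 fell, 3 members against 15.6% of tested genes called lower, and 9 of the 10 had negative log2 changes. In DNMT3ABKO cells Esrrb and Nanog rose, 2 members against 8.81% called higher, and 8 of the 10 had positive changes. Leaving out any of the 4 KH libraries at these times left Prdm14 alone, and leaving out either DNMT3ABKO library at 0 h, which belong to neither contrast but add to the shared spread, raised the counts to 5 and 7. Without replicate 2 of DNMT3ABKO cells at 72 h or at 144 h, Nanog was not called. With the replicate block Klf4 was also called lower in KH cells (-0.38, adjusted p = 0.0489, limma).

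The 10 factors were then compared directly between lines, using the same libraries as the time comparisons. At 0 h Prdm14 alone differed, 1 member against 4.92% of tested genes called higher, with DNMT3ABKO cells higher by 0.56 ± 0.119 (adjusted p = 0.0168, limma). This call was lost without replicate 1 of KH cells at 0 h. Other calls depended on which untreated DNMT3ABKO library was kept. Without replicate 2, Klf2 (-0.25), Klf4 (-0.60), Klf5 (-0.60), Tfcp2l1 (-0.32) and Tbx3 (-0.52) were also called, all lower in DNMT3ABKO cells. Without replicate 1, Nanog (0.59) and Nr5a2 (0.36) were also called, both higher in DNMT3ABKO cells.

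At 72 h 5 members were lower in DNMT3ABKO cells, against 1573 of the tested genes, or 10%, called lower. Tbx3 differed most, at 38.1 and 39.7 against 81.3 and 79.0 TPM (log2 difference -1.02 ± 0.115, adjusted p = 0.000185, limma). Tfcp2l1 was lower by 0.76, Esrrb by 0.65, Prdm14 by 0.65 and Nanog by 0.56 on the log2 scale, each without overlap between the lines. Zfp42 had a difference of 0.00 ± 0.069 and Klf5 one of -0.11 ± 0.135, while Klf2, Klf4 and Nr5a2 had -0.30, -0.28 and -0.26 and did not pass the test. Relative to Pou5f1, Sox2 and Sall4 the 5 calls stood, and Zfp42 was called higher, by 0.20. The mean of these 3 factors itself differed by -0.19 between lines at 72 h, and recentring moves every difference by that amount. The count was 8 without either DNMT3ABKO library at 0 h, with Klf2, Klf4 and Nr5a2 gained, and Nanog was lost without replicate 1 of KH or replicate 2 of DNMT3ABKO cells at 72 h. Macrophage markers were lower in DNMT3ABKO cells at 72 h for 11 of 12 genes and fibroblast markers for 3 of 19, and their part in these differences was not tested.

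By 144 h Zfp42 was the only member called between lines, 1 member against 11% of tested genes called higher. It was higher by 0.22 ± 0.069 in DNMT3ABKO cells (adjusted p = 0.0383, limma), and the call was lost without any single library of either line at 72 or 144 h, and with the replicate block (adjusted p = 0.0619). Prdm14 had a difference of 0.35 ± 0.119 (adjusted p = 0.0537, limma) and Tbx3 one of -0.25 ± 0.115 (adjusted p = 0.142, limma). Without either DNMT3ABKO library at 0 h both were also called, at the same differences. Those libraries belong to neither group compared here but add to the shared spread.

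**Figure D3:**
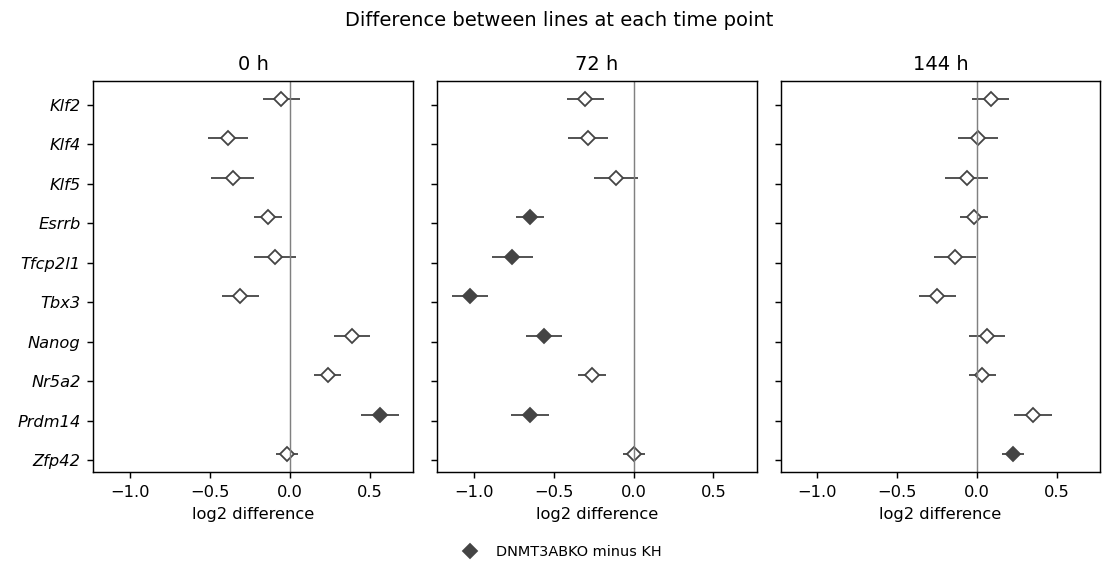
Log2 difference between lines (DNMT3ABKO minus KH) at 0, 72 and 144 h for each naive factor, with the standard error from limma as bars and filled symbols where adjusted p was under 0.05. At 72 h Esrrb, Tfcp2l1, Tbx3, Nanog and Prdm14 lie between -1.02 and -0.56, and at 144 h all members lie between -0.25 and 0.35.

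An interaction contrast tested whether the 72 h response differed between lines. It was negative for Prdm14, Nanog, Tbx3, Esrrb and Nr5a2, 5 members against 1.86% of tested genes called lower. Prdm14 had -1.21 ± 0.168 (adjusted p = 0.00321, limma) and Nanog -0.95 ± 0.160 (adjusted p = 0.00856), and both were called under every alternative and without any single library. Tbx3 (-0.71, adjusted p = 0.0336), Esrrb (-0.51, adjusted p = 0.0444) and Nr5a2 (-0.50, adjusted p = 0.0455) were all lost without any 1 of the 8 libraries KH at 0 or 72 h or DNMT3ABKO at 72 or 144 h. Esrrb and Nr5a2 were lost with the replicate block (adjusted p = 0.0713 and 0.0891) and with a pseudocount of 0.1 TPM, and without the filter on low values only Prdm14 and Nanog were called. Tfcp2l1 had a difference of -0.66 ± 0.184 (adjusted p = 0.0733), which was called without either DNMT3ABKO library at 0 h (-0.88 and -0.44). Without replicate 1 of these, Esrrb (-0.48) was lost as well and Klf2 (-0.45) was called lower. Without replicate 2, Klf5 was called in the opposite direction (0.49). Klf4, Klf5 and Zfp42 had differences of 0.10, 0.25 and 0.02.

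For the 144 h response limma called no member, where 8.59% of tested genes were called in either direction. At an unadjusted p under 0.05 there was 1 member, Zfp42, with a difference of 0.24 ± 0.098 (adjusted p = 0.176). Scaling by median ratios called Nanog and Zfp42. Without replicate 1 of DNMT3ABKO cells at 0 h Nanog (-0.53) was called lower. Without replicate 2 Klf4 (0.61), Klf5 (0.53) and Zfp42 (0.32) were called higher.

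Expression relative to 3 core factors, Pou5f1, Sox2 and Sall4, asked how far the naive factors moved beyond other pluripotency genes. Pou5f1 rose from 843 and 863 TPM to 1132 and 1106 TPM by 72 h in KH cells, and from 865 and 786 to 1086 and 1109 TPM in DNMT3ABKO cells. The mean log2 change of the 3 core factors was 0.42 in KH and 0.37 in DNMT3ABKO cells at 72 h and 0.44 and 0.49 at 144 h. Recentring moves the median of all genes down by the same amounts. That median became -0.34 in KH and -0.25 in DNMT3ABKO cells at 72 h, and -0.39 and -0.43 at 144 h. The share of all tested genes called on this scale is not given here. On this scale Klf4 (0.71), Prdm14 (0.71), Tbx3 (0.62) and Esrrb (0.35) were higher in KH cells at 72 h, and 4 calls were left of 10. In DNMT3ABKO cells Klf4 (0.86) and Klf5 (0.43) were higher and Nanog (-0.87), Tfcp2l1 (-0.51), Nr5a2 (-0.50) and Prdm14 (-0.45) were lower. Klf4 and Klf5 were higher in both lines at 144 h, at 0.31 and 0.32 in KH and 0.65 and 0.56 in DNMT3ABKO cells, while Klf2 and Tfcp2l1 were lower in both, at -0.29 and -0.27 in KH and -0.20 and -0.36 in DNMT3ABKO cells. The difference in 72 h response stayed called for the 5 members, from -0.45 for Nr5a2 to -1.16 for Prdm14, and Tfcp2l1 was called in addition at -0.61.

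**Figure D4:**
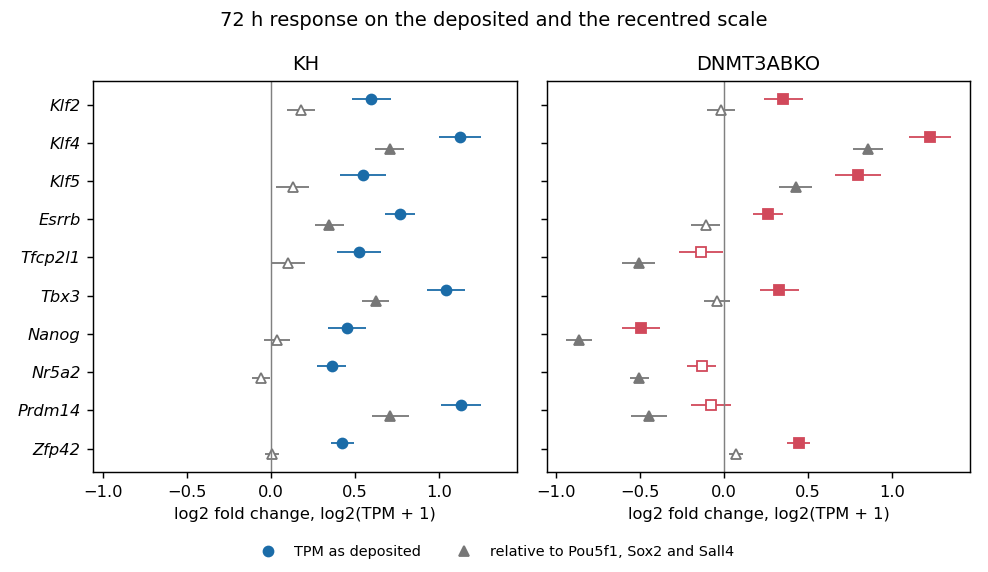
Log2 fold change at 72 h in KH (left) and DNMT3ABKO cells (right) on TPM as deposited (colored) and relative to the mean of Pou5f1, Sox2 and Sall4 in each library (gray triangles), with standard errors from limma as bars and filled symbols where adjusted p was under 0.05. The gray values lie 0.42 and 0.37 to the left, so that Nr5a2 in KH cells and Klf2, Esrrb and Tbx3 in DNMT3ABKO cells change sign.

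Among 8 core pluripotency factors 7 were higher in KH cells and 8 in DNMT3ABKO cells at 72 h, against 28.3% and 34.3% of tested genes, with median log2 changes of 0.45 and 0.39. Foxd3, a forkhead repressor of differentiation, rose most (1.94 and 1.76) among those named here, followed by Nr0b1 (1.26 and 1.23). Sox2 was at 208 and 225 TPM in KH cells at 0 h and 313 and 307 TPM at 72 h, and Sall4 went from 236 and 254 to 320 and 305 TPM. For the difference between lines in 72 h response limma called 0 of 8 core factors. With 3.38% of tested genes called higher and 1.86% called lower, that count does not set the core factors apart. Compared directly at 72 h, Sox2 was lower in DNMT3ABKO cells (-0.38, adjusted p = 0.0408, limma), 1 of 8 against 10% of tested genes.

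Upstream signals of the network comprised 15 genes for LIF, WNT, BMP and MEK/ERK signaling and TFE3 control. In KH cells at 72 h 6 rose and 5 fell, where 28.3% of tested genes were called higher and 19.5% lower. In DNMT3ABKO cells 6 rose and 6 fell, against 34.3% and 21.6%. Tcf7l1, the repressor of Esrrb and Tfcp2l1, fell by 0.59 in KH and by 0.74 in DNMT3ABKO cells on the log2 scale. Id3, a target of BMP signaling, fell by 0.73 and 1.13, and Smad1, a transducer of that pathway, rose by 0.57 and 0.67.

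Other naive markers and targets of the network rose in 10 and fell in 4 of 15 cases in KH cells at 72 h, and rose in 9 and fell in 5 in DNMT3ABKO cells, against the same shares of tested genes. Dppa3 (Stella), which protects methylation marks in the early embryo, was at 108 and 113 TPM at 0 h and 32.4 and 37.4 TPM at 72 h in KH cells. In DNMT3ABKO cells it went from 94.8 and 101 to 12.4 and 10.9 TPM, and the difference between these responses was -1.33 (adjusted p = 0.000985, limma). Zfp57, which maintains imprints, rose by 1.57 in KH and by 1.43 in DNMT3ABKO cells on the log2 scale. Naive markers outside the 10 factors thus moved in both directions.

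Formative and primed epiblast genes rose in 5 and fell in 4 of 12 cases in KH cells at 72 h, and rose in 6 and fell in 4 in DNMT3ABKO cells, against 28.3% higher and 19.5% lower and 34.3% and 21.6% of tested genes. Fgf5, a marker of the postimplantation epiblast, went from 11.5 and 11.8 to 0.74 and 0.70 TPM in KH cells and from 3.97 and 4.06 to 1.01 and 0.56 TPM in DNMT3ABKO cells. Pou3f1 (Oct6), a formative factor, was at 10.2 and 9.40 TPM in KH and 19.8 and 19.9 TPM in DNMT3ABKO cells at 72 h. The difference between responses was positive for 5 of the 12 genes and negative for 1, against 3.38% and 1.86% of tested genes, including Fgf5 (1.38), Pou3f1 (1.23, adjusted p = 0.000771, limma) and Lef1 (1.15), a WNT effector.

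Relatives of the members were read to see whether the families moved as a whole. Of 20 tested relatives 10 rose and 1 fell in KH cells at 72 h, and 12 rose and 3 fell in DNMT3ABKO cells, against 28.3% and 19.5% and 34.3% and 21.6% of tested genes. Klf12 rose by 1.91 and 2.20, Klf15 by 1.48 and 1.87 and Tfcp2, the paralog of Tfcp2l1, by 1.06 and 1.27. Prdm1 (Blimp1), a germline regulator, was the only relative with a called difference in 72 h response, -0.99 (adjusted p = 0.0141, limma), or 1 of 20 against 1.86% called lower.

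Patterns of expression over the 12 libraries were compared as a description, since the libraries share lines, times and scaling. Among 9412 genes, those most like Klf4 were Tgif1, Zfp263 and Tmem39a, with Pearson r of 0.995, 0.995 and 0.992. Nr5a2 was most like Zfp59 (0.930), Mov10 (0.900) and Nanog (0.897). Within the members r was 0.91 for Klf4 with Klf5 and for Esrrb with Tbx3, and 0.14 for Nanog with Klf4 and 0.16 for Prdm14 with Klf5.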

How the data were processed

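RNA had been extracted from sorted cells of both lines, depleted of ribosomal RNA and sequenced. Per the labels, the authors trimmed reads with cutadapt 2.4, aligned them to mm10 with STAR 2.7.3a and quantified genes with StringTie 2.0. The deposited values are TPM, 1 library per table, each summing to 1000000, with replicates kept apart. Time points of a biological replicate were handled side by side per the study's design statement, which does not tie this to the replicate numbers of the libraries. Deviations of same-numbered libraries of a line from their group means correlated at -0.10 to 0.10 across genes. Coordinates are those of the tables (mm10, counted from 1), and all 10 members had identical coordinates in GENCODE M21.

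TPM values are not counts, so the study's count model was not used. Values were analysed as log2(TPM + 1) for the 15727 genes that averaged 1 TPM or more. limma 3.58.1 (lmFit, contrasts.fit, and eBayes with a trend) in R 4.3.3 was fitted with 1 coefficient for each of the 6 groups, without covariates. There were 11 two-sided contrasts, and calls required an adjusted p under 0.05 (Benjamini-Hochberg over all tested genes of a contrast). All adjusted p values are from limma. With 2 libraries against 2, an exact permutation test could not reach that threshold and was not used.

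The 10 members, the gene lists and the tests were chosen with earlier results of these data known. All members are named. Of each list up to 3 genes with the largest called change in a contrast are named, with Pou5f1, Sox2 and Sall4 always, Dnmt3a and Dnmt3b as the label check, and the 3 genes most correlated with the members of widest and narrowest range among genes averaging 5 TPM or more. Some genes that this rule selects are not reported here. Promoters are from RefSeq. Identity among the proteins was not analysed here.

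The alternatives tried were testing without the filter (37364 genes), adding 0.1 TPM in place of 1, scaling by median ratios, recentring on Pou5f1, Sox2 and Sall4, a fit on the groups of a contrast alone, the replicate number as a blocking term for each line, and leaving out each library. Python 3.11.15, pandas 2.3.3, NumPy 2.4.6 and matplotlib 3.10.9 were also used.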

Additional observations from a re-analysis of the deposited data

Results flagged for a closer look

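The response to 72 h of mTORi differed between lines, by limma's test of the difference itself, for 5 of the naive factors. In each case the response was lower in DNMT3ABKO cells, against 1.86% of tested genes called lower. On the log2 scale the difference (DNMT3ABKO minus KH) was -1.21 for Prdm14, -0.95 for Nanog, -0.71 for Tbx3, -0.51 for Esrrb and -0.50 for Nr5a2. Mean Prdm14 levels at 0 and 72 h were 4.35 and 10.7 TPM in KH cells, against 6.85 and 6.45 TPM in DNMT3ABKO cells. Leaving out single libraries gave differences of -1.37 to -1.05 for Prdm14 and of -1.15 to -0.75 for Nanog, with adjusted p of at most 0.0225 and 0.045. The highest adjusted p over these exclusions was 0.128 for Tbx3, 0.178 for Esrrb and 0.163 for Nr5a2. With the replicate block Esrrb and Nr5a2 had adjusted p of 0.0713 and 0.0891, a pseudocount of 0.1 TPM lost the same 2 members, and testing without the filter on low values called Prdm14 and Nanog only.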

How the results depend on the processing

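Each group had 2 libraries, and the shared spread included the more variable DNMT3ABKO cells at 0 h, so changes near the threshold were called or not depending on the setting. Depth is unknown for TPM, and the cause of the changes below was not tested unless stated. Relative to Pou5f1, Sox2 and Sall4, a called direction reversed for Klf2 (-0.020), Esrrb (-0.11) and Tbx3 (-0.042) in DNMT3ABKO cells at 72 h, Nr5a2 (-0.058) in KH cells at 72 h, and Nanog (-0.14), Nr5a2 (-0.17) and Zfp42 (-0.087) in KH cells at 144 h. Changes that had not been called also turned negative at 144 h, for Klf2 (-0.29 and -0.20) and Tfcp2l1 (-0.27 and -0.36) in KH and DNMT3ABKO cells, Prdm14 (-0.27) in KH and Nr5a2 (-0.42) in DNMT3ABKO cells. By construction that setting moved the median of all genes by the mean change of these 3 factors. Scaling by median ratios moved it by -0.11 in DNMT3ABKO cells at 72 h. The counts that follow are of members only. The share of all tested genes called under each setting is not given here, so changes in these counts do not set the members apart.

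Recentring gave 4 calls instead of 10 for KH cells at 72 h and 9 (4 higher, 5 lower) instead of 5 higher for DNMT3ABKO cells at 144 h, where KH cells had 5 (2 higher, 3 lower) instead of 7 higher, 5 instead of 3 for KH cells from 72 to 144 h, and 3 and 2 instead of 1 between lines at 0 and 144 h. Median-ratio scaling gave 5 calls for KH and 7 instead of 2 for DNMT3ABKO cells from 72 to 144 h, 4 and 2 between lines at 0 and 144 h, and 2 instead of 0 for the difference in 144 h response. Without a filter there was 1 call for KH cells from 72 to 144 h, 4 instead of 7 for DNMT3ABKO cells at 72 h, 0 between lines at 144 h and 2 instead of 5 for the difference in 72 h response. Fitting the groups of a contrast alone gave 7 calls in each line from 72 to 144 h, 4 for DNMT3ABKO cells at 72 h, 0, 8 and 3 between lines at 0, 72 and 144 h (against 1, 5 and 1), and 3 for the difference in 72 h response, as did a pseudocount of 0.1 TPM.

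With the replicate block the difference in 72 h response had 3 calls, Tbx3, Nanog and Prdm14, and no member was called between lines at 144 h (0 instead of 1). Nanog in KH cells at 144 h was lost, Klf2 in DNMT3ABKO cells at 144 h and Klf4 in KH cells from 72 to 144 h were called, and the block changed no other call. Leaving out single libraries gave 7 to 10 calls for KH and 4 to 7 for DNMT3ABKO cells at 72 h, 5 to 7 and 5 to 8 at 144 h, and 1 to 5 and 1 to 7 from 72 to 144 h. Between lines the ranges were 0 to 6, 4 to 8 and 0 to 3 at 0, 72 and 144 h, and for the differences in response 2 to 7 at 72 h and 0 to 3 at 144 h.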
